A study of Mus musculus with 7 samples.

Results

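The levels of genes of iron uptake, iron export, iron storage, heme breakdown and metal binding were followed through development of the mouse colon, for a list of 9: Tfrc, Slc11a2, Slc40a1, Cybrd1, Heph, Fth1, Mt1, Mt2 and Hmox1. The rule was the list itself, and all 9 were measured, by 21 of the 34958 probe sets that name a single gene, out of 18194 genes in all. The tissue was colon of the inbred strain C57BL/6, taken daily from embryonic day E13.5 to E18.5 and from adults aged 8 weeks, and the labels name no treatment or mutation. Total RNA of each stage went onto 1 Affymetrix expression array, on which a probe set is a group of short oligonucleotides against one transcript. The labels do not say how many animals gave the RNA of a stage. With 1 array per stage, the error of every test below comes from the spread of the 6 embryonic arrays around a line. That spread is drawn in part toward the one seen over all genes or probe sets of the fit. The adult array is assumed to vary in the same way. Values are log2 intensities normalized by the authors, and levels of different probe sets cannot be set against each other.

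Iron enters cells bound to transferrin through the transferrin receptor, or as free ferrous iron through the transporter DMT1 once a reductase at the cell surface has reduced it. Iron that is not used is stored in the ferritin shell or leaves the cell through ferroportin, helped by the ferroxidase hephaestin. Heme oxygenase 1 releases iron from heme. Metallothioneins are small cysteine-rich proteins that bind zinc and copper, and their genes are switched on by zinc, glucocorticoids and oxidative stress. The steps of intestinal iron absorption are best known from the duodenum, which was not analysed here.

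The genes Mt1 and Mt2 are neighbours on chromosome 8, which also holds Hmox1. The metal-responsive factor MTF1 binds metal response elements, whose core was searched for as TGCACNC and TGCGCNC on both strands. The 250 bases before the start site of each gene are shown because Mt1 and Mt2 spanned the widest range of the 9 genes over the 7 arrays (3.30 and 4.16 on the log2 scale), with matches to the core in capitals (RefSeq, GRCm38.p6, plus strand, chr8:94178839-94179088 for Mt1 and chr8:94172368-94172617 for Mt2).
Mt1: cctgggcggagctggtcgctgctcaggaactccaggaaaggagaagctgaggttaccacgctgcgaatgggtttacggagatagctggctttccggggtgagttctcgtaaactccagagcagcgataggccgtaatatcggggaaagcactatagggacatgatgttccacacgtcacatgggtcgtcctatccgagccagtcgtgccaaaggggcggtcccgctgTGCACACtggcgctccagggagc
Mt2: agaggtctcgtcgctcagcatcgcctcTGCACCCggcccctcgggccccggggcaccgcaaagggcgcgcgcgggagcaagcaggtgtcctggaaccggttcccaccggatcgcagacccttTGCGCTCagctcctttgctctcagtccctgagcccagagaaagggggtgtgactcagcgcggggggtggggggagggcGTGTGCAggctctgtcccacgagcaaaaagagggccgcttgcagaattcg
Within the window of 300 bases that adds the first 50 bases after the start, Mt1 held 3 matches. The first lay at −23 to −17 from the start, and the others at 3 to 9 (TGCACTC) and 21 to 27 (TGCGCTC) after it. Mt2 held 4 matches, at −223 to −217, at −128 to −122, at −50 to −44 (on the minus strand) and at 5 to 11 after the start (also on the minus strand). Of 32851 RefSeq windows of this length, 25.7% held at least 1 match, 1.97% held at least 3 and 0.517% held at least 4. A match is a description of the letters and not a tested binding site. The Mt1 start used for the window lies 206 bases inside the gene record, so other transcripts of Mt1 may start elsewhere. The positions and the count of matches given for Mt1 hold for this start only.

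Along the embryonic days 2 of the 9 genes rose, Mt1 and Slc40a1, and none fell, and 1 gene, Mt2, was higher in the adult colon than at E18.5. These calls come from limma, which gave each gene a slope per embryonic day and an adult difference, that is, the adult value minus the E18.5 end of the fitted line. A call needed an adjusted p under 0.05 over all genes and, in the adult, a difference of at least 1 on the log2 scale. Over all 18194 genes 9.12% rose, 10.4% fell, 4.23% were higher in the adult and 3.26% were lower, so that 2 of 9 rising genes and 1 of 9 higher ones are counts too small to set the list apart. At an unadjusted p under 0.05, 5 of the 9 genes had a positive slope and none a negative one, against 14.6% and 16.7% of all genes. At the same threshold 2 of the 9 lay above and 1 below by 2-fold or more in the adult, against 4.54% and 3.5% of all genes. Of the 21 probe sets, 5 rose along the embryonic days (7.24% of all single-gene probe sets), and that of Mt2 was higher in the adult (3.94%). The median slope of the 9 genes was 0.13 per day, against 0.00087 over all genes, and the median adult difference was 0.06, against 0.03. These are whole-tissue RNA samples, in which more cells of a type and more RNA per cell cannot be told apart. The plot of fitted changes separates the 3 called values from the other 15.

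**Figure D1:**
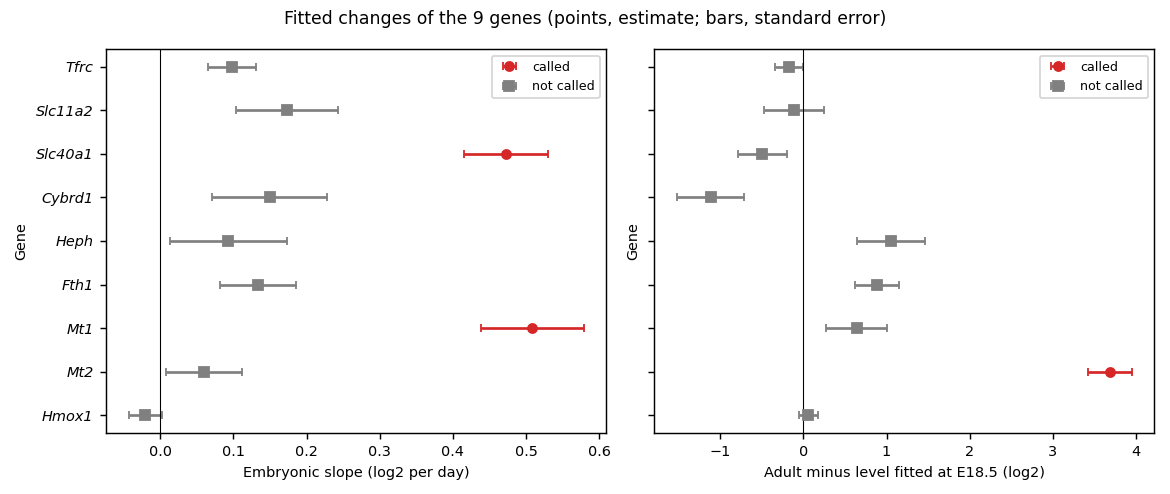
Fitted changes of the 9 genes (points, estimate from limma; bars, standard error; red circles, called; gray squares, not called). The left panel gives the slope in log2 per embryonic day and the right panel the adult level minus the level fitted at E18.5, in log2. Slc40a1 (0.47) and Mt1 (0.51) have the called slopes, and Mt2 (3.68) the called adult difference.

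Mt1, which encodes metallothionein 1, rose through the embryonic days with its largest step between E15.5 and E16.5. Its brighter probe set, 1422557_s_at, had, from E13.5 to E18.5, 7.18, 8.22, 8.51, 11.01, 11.30 and 11.24 on the embryonic arrays and 12.52 on the adult array. The 3 later embryonic arrays all lay above the 3 earlier ones, and the adult array was highest. The step of 2.50 from E15.5 to E16.5, a 5.64-fold difference between single arrays with no test, ranked 21 of 34958 probe sets, of which 1.02% stepped up by 2-fold or more. The dimmer probe set of Mt1, 1451612_at, stayed between 5.74 and 6.30 on the embryonic arrays and was 0.71 above its E18.5 value in the adult. The 2 probe sets followed each other over the 7 arrays (Pearson r = 0.868, as a description), but the dimmer one spanned 1.26 on the log2 scale and the brighter one 5.34. The suffix s marks a probe set whose probes may also match transcripts of other genes.

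As the median of both probe sets, Mt1 had a slope of 0.51 per day (standard error 0.07, adjusted p = 0.0046 in limma), rank 203 of 18194 genes. The slopes of the single probe sets were 0.91 (standard error 0.13, adjusted p = 0.0058 over all single-gene probe sets in limma) and 0.10 (standard error 0.03, adjusted p = 0.046), and the dimmer one lost its call in 8 of its 11 alternatives. These were the fits without E13.5, E14.5, E16.5, E17.5 or E18.5 (adjusted p between 0.0541 and 0.262), with arrays centred on their medians, with a trended and robust variance and with 2 embryonic levels. Against the level fitted at E18.5 the adult value of Mt1 differed by 0.64 (standard error 0.36, adjusted p = 0.298 in limma), which did not pass, and by 0.25 without the E18.5 array. That of the dimmer probe set was 0.63 (standard error 0.14, adjusted p = 0.0247), short of 2-fold. In single arrays Mt1 was at 9.76 in the adult and 8.77 at E18.5.

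Mt2, which encodes metallothionein 2, was lower on every embryonic array than in the adult. Probe set 1428942_at stood day by day at 7.12, 7.22, 7.76, 7.71, 7.54 and 7.35 from E13.5 on, and at 11.28 in the adult. The embryonic values spanned 0.64 on the log2 scale and had their maximum at E15.5, and the adult value lay 15.2-fold above that at E18.5. The adult difference was 3.68 (standard error 0.27, adjusted p = 0.00024 in limma), rank 40 of 18194 genes, while the embryonic slope was 0.06 per day (standard error 0.05, adjusted p = 0.514). Over the 14 alternatives tried the adult difference stayed between 3.41 and 3.94, with adjusted p between 9.65e-05 and 0.0031. Thus Mt1 passed along the embryonic days and not in the adult, and Mt2 in the adult and not along the embryonic days. The difference between the genes was not itself tested. The other metallothionein genes measured, Mt3, known from brain, and Mt4, known from squamous epithelium, passed neither test. Mt3 had a slope of 0.00 and an adult difference of 0.28, and Mt4 a slope of 0.09 and an adult difference of 0.15. Mtf1, which encodes the factor known to bind metal response elements, was at 6.14 in the adult and between 6.02 and 6.12 on the embryonic arrays.

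**Figure D2:**
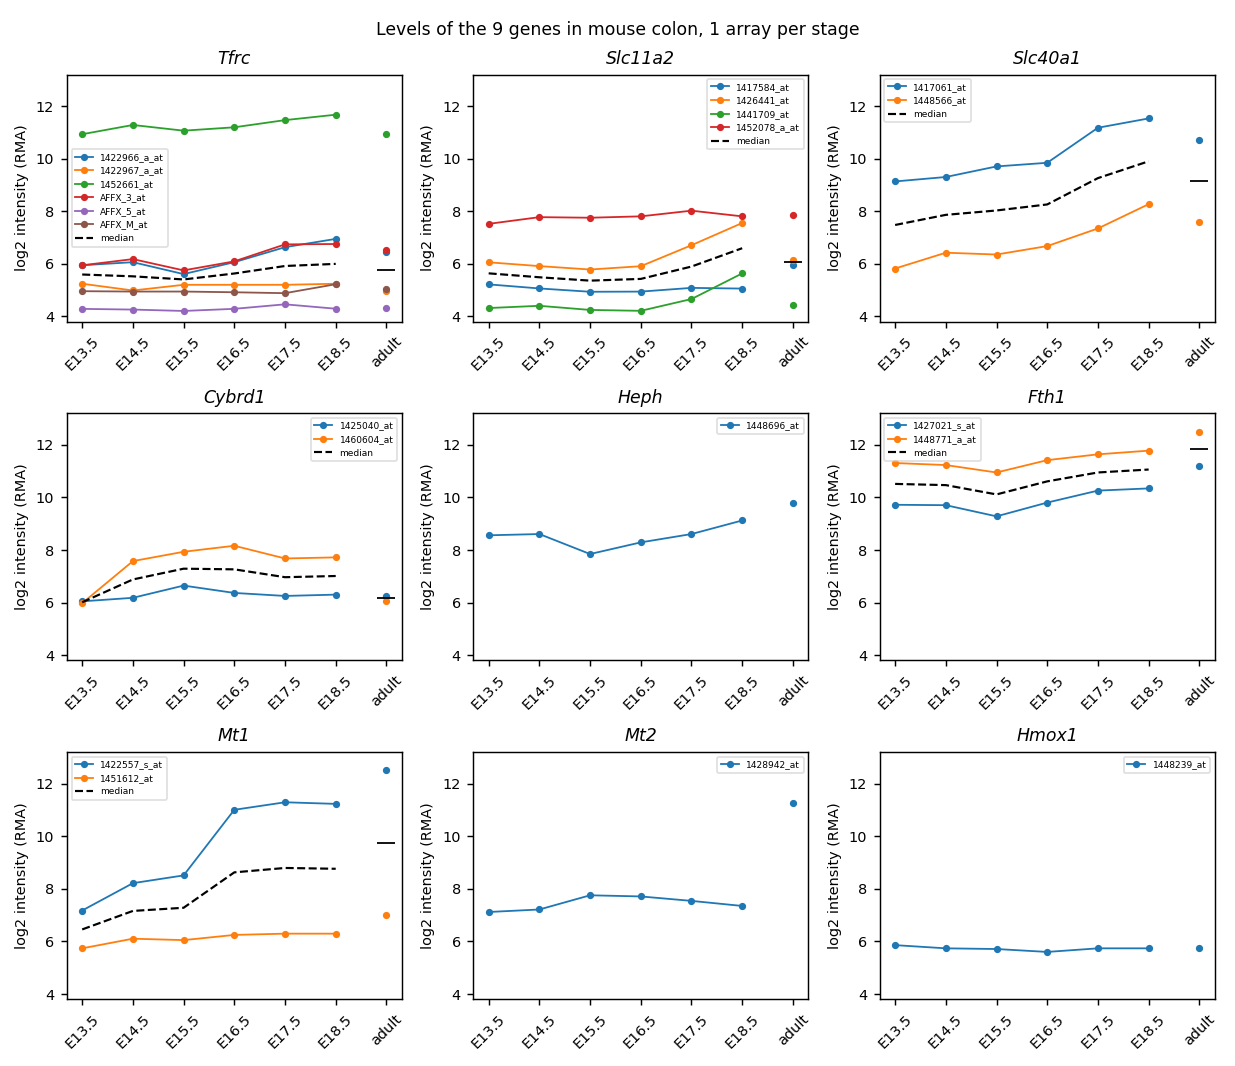
Log2 intensity of each single-gene probe set (colored points, joined across the 6 embryonic arrays) of the 9 genes at the 7 stages, with the median over the probe sets where there are several (dashed line; bar in the adult). AFFX marks control probe sets on the 5′, middle (M) and 3′ parts of Tfrc. Mt1 steps up between E15.5 and E16.5 in the brighter probe set, Mt2 is at 11.28 in the adult and at most 7.76 before birth, and Hmox1 stays between 5.60 and 5.86.

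Slc40a1, which encodes ferroportin, the exporter that hepcidin removes from the cell surface, rose through the embryonic days and was highest at E18.5. Probe set 1417061_at gave 9.13, 9.30, 9.70, 9.84, 11.17 and 11.53 on the 6 embryonic arrays in order of age, and 10.70 on the adult one. Probe set 1448566_at had 5.82, 6.42, 6.35, 6.67, 7.34 and 8.27 at these embryonic stages and 7.60 in the adult. The 2 probe sets gave the same course (Pearson r = 0.951 over 7 arrays), with E17.5 and E18.5 above every earlier array. The slopes were 0.51 and 0.44 per day (adjusted p = 0.0051 and adjusted p = 0.0061 over all single-gene probe sets in limma), and that of their median was 0.47 (standard error 0.06, adjusted p = 0.0031), rank 234 of 18194 genes. The call was kept without each embryonic array (adjusted p between 0.0039 and 0.0274) but not when the later 3 embryonic arrays were set against the earlier 3 as 2 levels (difference 1.35, standard error 0.40, adjusted p = 0.0933). The adult level lay 0.49 below the fitted E18.5 level (adult difference −0.49, standard error 0.29, adjusted p = 0.326), which did not pass.

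Heph encodes hephaestin, the membrane ferroxidase that works with ferroportin in the gut. Its probe set, 1448696_at, had, from E13.5 to E18.5, 8.56, 8.61, 7.85, 8.29, 8.61 and 9.13 on the embryonic arrays and 9.79 on the adult array. The adult array was highest and E15.5 lowest. Neither the slope (0.09 per day, standard error 0.08, adjusted p = 0.513 in limma) nor the adult difference (1.05, standard error 0.41, adjusted p = 0.136) passed, and without the E18.5 array the slope was −0.02.

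Tfrc encodes transferrin receptor 1, which is abundant in dividing cells and in red cell precursors. Its 6 probe sets, 3 of them control probe sets of the array design, differed in level and course. The brightest, 1452661_at, stood day by day at 10.93, 11.28, 11.06, 11.19, 11.47 and 11.67 from E13.5 on, and at 10.95 in the adult. Its slope of 0.13 per day passed (standard error 0.03, adjusted p = 0.0435 over all single-gene probe sets in limma), but not without E13.5 (adjusted p = 0.202), E16.5 (adjusted p = 0.0639), E17.5 (adjusted p = 0.128) or E18.5 (adjusted p = 0.242). Its adult value lay 0.63 below the fitted E18.5 level (adult difference −0.63, standard error 0.17, adjusted p = 0.0474), short of 2-fold. Probe set 1422966_a_at (6.95 at E18.5 against 5.94 at E13.5) and the 3′ control probe set (6.75 against 5.94) were correlated with each other (r = 0.975 over 7 arrays). The 5′ and middle control probe sets stayed between 4.20 and 5.22, and 1422967_a_at between 4.96 and 5.24. As the median of all 6, Tfrc stayed within 5.40 and 5.99 and passed neither test (slope 0.10, standard error 0.03, adjusted p = 0.0896 in limma), while the slope passed in 3 of the 14 alternatives, without E15.5 (adjusted p = 0.0461), with a quadratic term (adjusted p = 0.034) and with the brightest probe set in place of the median (adjusted p = 0.0383). Without the 3 control probe sets the slope of the median was 0.21 per day (adjusted p = 0.0711).

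Lists of proliferation and red cell genes were set beside Tfrc. Of 16 measured genes of proliferation 15 fell, and the mean log2 level of the list was 9.04 at E13.5 and 8.16 at E18.5, with 7.22 for the adult. Of 13 measured red cell genes 3 fell, all embryonic globins, with means of 6.22 at E13.5 and 4.96 at both E18.5 and the adult stage. Hba-a1, the only adult globin gene of the list that was measured, stayed between 4.72 and 5.06 (named after its values were seen). The mean of this list therefore cannot stand for red cell content. The part of both lists in the level of Tfrc was not tested.

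Slc11a2 encodes DMT1, the importer of ferrous iron, and is known to give transcripts with different ends, so its 4 probe sets are given apart. Probe set 1426441_at gave 6.05, 5.91, 5.78, 5.91, 6.70 and 7.55 on the 6 embryonic arrays in order of age, and 6.15 on the adult one. Probe set 1441709_at had 4.31, 4.40, 4.24, 4.21, 4.66 and 5.63 at the embryonic stages and 4.42 in the adult. Both were highest at E18.5 and lower again in the adult, and they were correlated over the 7 arrays at r = 0.969. Their adult values lay 2.65-fold and 2.32-fold below those at E18.5, between single arrays. By contrast, probe set 1417584_at stayed between 4.93 and 5.21 on the embryonic arrays and was at 5.95 in the adult (adult difference 0.96, standard error 0.14, adjusted p = 0.0047 over all single-gene probe sets in limma, short of 2-fold). Probe set 1452078_a_at stayed between 7.52 and 8.02 on all arrays. Which part of the transcript each probe set covers was not analysed here.

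The first 2 of these probe sets had their largest step at the end, with values 0.85 and 0.97 higher at E18.5 than at E17.5 (ranks 178 and 112 of 34958 probe sets, with no test). Their slopes of 0.29 and 0.21 per day did not pass (adjusted p = 0.0836 and adjusted p = 0.134 over all single-gene probe sets in limma), but passed with a quadratic term added (adjusted p = 0.0024 and adjusted p = 0.0178), as did adult differences of −1.40 and −1.09 (adjusted p = 0.0031 and adjusted p = 0.0269). As the median of the 4 probe sets, Slc11a2 had a slope of 0.17 (standard error 0.07, adjusted p = 0.142 in limma), which passed only with the quadratic term among the 14 alternatives (adjusted p = 0.0036), and an adult difference of −0.11 (standard error 0.36, adjusted p = 0.887). Without the E18.5 array its slope was 0.05 and without E13.5 it was 0.27, and that of 1441709_at was 0.05 without E18.5. With the brightest probe set in place of the median the slope was 0.06.

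Cybrd1 encodes duodenal cytochrome b, a ferric reductase of the cell surface. Its probe set 1460604_at had, from E13.5 to E18.5, 5.98, 7.58, 7.93, 8.16, 7.68 and 7.72 on the embryonic arrays and 6.07 on the adult array. The values from E14.5 to E18.5 lay above those of E13.5 and the adult. The difference of 1.60 between E14.5 and E13.5, without a test, ranked 27 of 34958 probe sets, of which 0.421% were at least 2-fold higher at E14.5. Against the level fitted at E18.5 the adult lay 2.10 lower on the log2 scale (adult difference −2.10, standard error 0.65, adjusted p = 0.0746 over all single-gene probe sets in limma), which did not pass with a line and passed without the E13.5 array (−1.75, adjusted p = 0.0134) and with a quadratic term (−1.43, adjusted p = 0.0365). The other probe set, 1425040_at, stayed between 6.05 and 6.65. The median of both had a slope of 0.15 (standard error 0.08, adjusted p = 0.258 in limma) and an adult difference of −1.11 (standard error 0.40, adjusted p = 0.111).

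Fth1 encodes the heavy chain of ferritin, which oxidizes iron for storage. Probe set 1448771_a_at stood day by day at 11.31, 11.23, 10.95, 11.42, 11.64 and 11.78 from E13.5 on, and at 12.49 in the adult. Probe set 1427021_s_at had 9.72, 9.71, 9.28, 9.81, 10.26 and 10.35, and 11.20 in the adult. Both were highest in the adult and lowest at E15.5, and their r over the 7 arrays was 0.995. Ferritin genes have many processed copies in the genome, so the probes may also detect these. The slope of the median was 0.13 per day (standard error 0.05, adjusted p = 0.127 in limma) and passed without E15.5 (0.12, adjusted p = 0.0241). The adult difference of 0.89 (standard error 0.26, adjusted p = 0.0614) did not pass. In single arrays the adult level lay 1.72-fold above that at E18.5.

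Hmox1, which encodes the inducible heme oxygenase, passed neither test, with the line or under any of the 14 alternatives. Its probe set, 1448239_at, gave 5.86, 5.74, 5.71, 5.60, 5.74 and 5.74 on the embryonic arrays in order of age, and 5.74 on the adult one. Over the 7 arrays its values spanned 0.26 on the log2 scale, and 76.5% of all genes likewise spanned less than 1. The slope was −0.02 per day (standard error 0.02, adjusted p = 0.619 in limma) and the adult difference 0.06 (standard error 0.12, adjusted p = 0.81). Hmox2, the constitutive heme oxygenase, was at 8.95 in the adult and between 8.89 and 9.43 on the embryonic arrays, and passed neither test (slope −0.09, adjusted p = 0.0825 in limma).

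By the array on which they were highest, the 9 genes fell into 4 that peaked in the adult (Mt1, Mt2, Fth1 and Heph), 3 at E18.5 (Slc40a1, Slc11a2 and Tfrc), 1 at E15.5 (Cybrd1) and 1 at E13.5 (Hmox1). Of all genes, 33.4% were highest in the adult and 9.38% at E18.5. The lowest array was E15.5 for Tfrc, Slc11a2, Heph and Fth1, as for 17% of all genes. The mean over all genes was also lowest at E15.5 (6.41, against 6.44 to 6.53 on the other arrays). Fth1 and Heph were the pair with the closest courses (Pearson r = 0.947 over the 7 arrays), and Cybrd1 and Hmox1 had the lowest r (−0.748). Hmox1 spanned only 0.26 on the log2 scale, so its highest array and its r rest on small differences. With 7 arrays that share a common trend in age, these correlations are descriptions.

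Among the 4125 named genes with a span of at least 1 on the log2 scale, those with the highest Pearson r to each gene over the 7 arrays were as follows. For Mt1 they were the epithelial genes Scin, an actin-severing protein (r = 0.994), Krt8, a keratin of simple epithelium (r = 0.993), and Fxyd3, a regulator of the sodium pump (r = 0.992). For Mt2 they were Casq2, a calcium store protein of muscle (r = 0.998), Ovol2, an epithelial transcription factor (r = 0.998), and Prss2, a trypsin (r = 0.996), each with its highest value on the adult array. For Slc40a1 they were Yif1a (r = 0.994), Maob, a monoamine oxidase (r = 0.992), and Cav2, a caveolin (r = 0.983). For Tfrc they were Mfsd12, Ncam2 and Pirt (r = 0.986, 0.979 and 0.970). For Slc11a2 they were Mvd, of sterol synthesis, Slc34a2, a phosphate transporter, and Dpp7 (r = 0.964, 0.962 and 0.955). For Cybrd1 they were Tnn, Nalcn and Stmn3, a neuronal stathmin (r = 0.983, 0.979 and 0.969). For Heph they were Tmem161a, Rwdd2b and Ndufs8, of respiratory complex I (r = 0.994, 0.993 and 0.992), and for Fth1 Suclg2, of the citric acid cycle, Rbks and Hint3 (r = 0.996, 0.995 and 0.995). For Hmox1 the r values were lower, with Aldh1a7, an aldehyde dehydrogenase, Ambp and Foxp1, a forkhead factor (r = 0.850, 0.830 and 0.820).

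Of 31 further genes of iron handling that were measured, 4 rose along the embryonic days, 1 fell, 2 were higher in the adult and 1 was lower, with a median slope of 0.01 per day and a median adult difference of 0.17. Steap4, a metalloreductase, rose (slope 0.33 per day, standard error 0.05, adjusted p = 0.0074 in limma) and was lower in the adult (5.61 in the adult, 6.84 at E18.5, adjusted p = 0.041). Mon1a, which takes part in ferroportin trafficking, and Epas1, which encodes the hypoxia factor HIF-2alpha, rose by 0.22 and 0.21 per day (adjusted p = 0.0092 and adjusted p = 0.012). Slc25a28, a mitochondrial iron importer, was the other rising gene (0.09 per day, adjusted p = 0.043), and Ireb2, an iron regulatory protein that binds ferritin and Tfrc messenger RNA, was the falling one (−0.15 per day, adjusted p = 0.0135). These last 2 genes were named after their values were seen. Lcn2, which binds bacterial siderophores, was at 6.06 in the adult and 4.52 at E18.5 (adult difference 1.68, adjusted p = 0.00096), and Hfe, the hemochromatosis gene, at 6.73 and 5.61 (adult difference 1.07, adjusted p = 0.00087). The hepcidin gene Hamp, whose product acts on ferroportin, passed neither test and was at 4.83 in the adult and between 4.57 and 4.76 on the embryonic arrays.

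Of 21 measured genes of heme synthesis, transport and breakdown, none rose or fell in limma (at an unadjusted p under 0.05, 3 had a positive slope and 3 a negative one), and 3 were higher in the adult. Alas1, the rate-limiting enzyme of heme synthesis outside red cells, was at 10.17 in the adult and 7.76 at E18.5 (adult difference 2.51, standard error 0.23, adjusted p = 0.0006), and Abcb6, a porphyrin transporter, at 9.81 and 8.30 (adult difference 1.68, adjusted p = 0.0145). The other was Cd163, the hemoglobin scavenger receptor of macrophages, at 6.78 and 4.12 (adult difference 2.64, adjusted p = 1.53e-05). Slc46a1, a folate transporter first described as a heme carrier, had the largest slope of the list in size, 0.20 per day (adjusted p = 0.0715 in limma), which did not pass.

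Of 29 measured genes of zinc and copper handling, 7 rose and 2 fell, 1 was higher in the adult and 2 were lower. Slc39a4, the zinc importer of the gut, was among the rising genes, with 8.33 at E18.5 against 6.21 at E13.5 (a slope of 0.40 with a standard error of 0.09, adjusted p = 0.0203 in limma). Slc39a11, also of the zinc importer family (slope 0.39, adjusted p = 0.0025), and Slc31a1, the copper importer (slope 0.27, adjusted p = 0.0062), rose too. Slc39a10, another zinc importer, fell by 0.21 per day on the log2 scale and was lower again in the adult (6.00 in the adult, 7.10 at E18.5, adjusted p = 0.00066). Slc30a5 was lower and Slc30a10 higher in the adult (adult differences −1.22 and 1.04).

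Metallothionein genes and Hmox1 are known to respond to oxidative stress, and metallothionein genes also to glucocorticoids. Of 11 measured genes of the response to the factor NRF2, 1 rose (Nqo1, a quinone reductase, 0.38 per day, adjusted p = 0.0292 in limma) and 4 were higher in the adult, among them Osgin1, Nfe2l2, which encodes NRF2 itself, and Gclc, of glutathione synthesis (adult differences 1.63, 1.53 and 1.24, adjusted p = 0.00061, 0.005 and 0.00036). The median adult difference of this list was 1.07, against 0.82 for the glucocorticoid list, 0.61 for the macrophage list and 0.03 over all genes. Uncalled genes of the NRF2 list had adult differences from −0.24 (Keap1) to 1.40 (Nqo1), with Txnrd1 at −0.06 and Gsr at −0.05. Of 14 genes of the glucocorticoid list, 3 rose, 1 fell and 4 were higher in the adult. Besides response genes this list holds the receptor gene Nr3c1 and the enzyme genes Hsd11b1 and Hsd11b2. Hsd11b2, which inactivates corticosterone, was at 11.12 in the adult and 8.29 at E18.5 (adult difference 3.39, adjusted p = 0.0099 in limma). Hsd11b1, which regenerates it, was at 8.28 and 6.24 (adult difference 2.13, adjusted p = 0.0006). Pdk4, a metabolic kinase induced by glucocorticoids, rose by 0.34 per day (adjusted p = 0.0047 in limma) and was higher in the adult by 1.15. Per1 was the other gene called higher in the adult (adult difference 1.12). The rest of this list did not pass in the adult, with differences from −0.48 (Ddit4) to 1.07 (Sgk1). Among these were Fkbp5 (0.54) and Zbtb16 (−0.03). Keap1, Txnrd1, Gsr, Nr3c1, Per1, Fkbp5 and Zbtb16 were named after their values were seen.

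**Figure D3:**
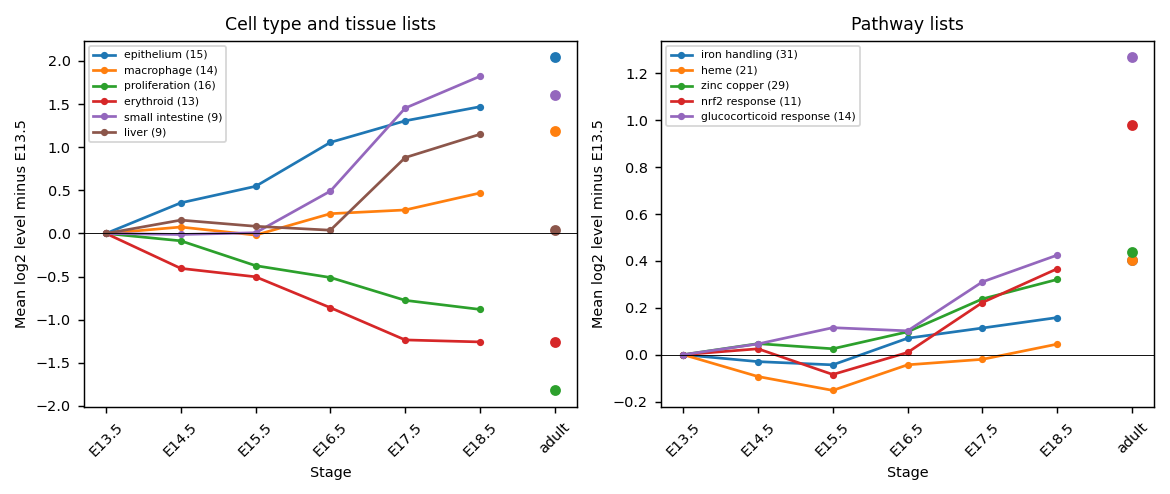
Mean log2 level of each gene list minus its mean at E13.5, by stage (points; lines join the 6 embryonic arrays; number of measured genes in brackets), for lists of cell types and tissues (left) and of pathways (right). The mean of the epithelial list climbs on every embryonic array, that of the small intestine list after E15.5 and that of the liver list after E16.5. The means of the proliferation and red cell lists go down, the latter with only 3 embryonic globins called as falling.

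Cell type and tissue lists also differed between the stages. Of 15 epithelial genes 13 rose, and their mean log2 level was 8.52 at E13.5, 9.57 at E16.5 and 9.99 at E18.5, with 10.56 for the adult. Of 14 macrophage genes 1 rose (Mpeg1) and 4 were higher in the adult, with means of 7.04 in the adult and between 5.84 and 6.33 on the embryonic arrays. Of 9 genes known from small intestine 4 rose, among them Fabp2 and Fabp6, which encode fatty acid and bile acid binding proteins, and their mean was 5.47 at E13.5 and 7.29 at E18.5, with 7.08 for the adult. Of 9 liver genes 3 rose, with means of 6.26 and 7.41 at these stages and 6.30 for the adult. Apoa1 was at 11.26 at E18.5 and 6.61 in the adult (adult difference −3.98, adjusted p = 0.0645 in limma, not passed). The liver genes did not move together between the single E18.5 and adult arrays, and none was called higher or lower in the adult. Afp (9.51 at E18.5 and 5.09 in the adult), Ttr, Fga and Fgb also had adult values below those at E18.5. By contrast, Apob (5.29 and 6.17) and Ahsg (6.39 and 6.80) had adult values above them. Alb (6.69 and 6.83) and Apoh (4.92 and 4.94) differed little. Liver genes other than Apoa1 were named here after their values were seen. Of 10 genes of stroma and muscle 5 rose, 2 fell and 3 were lower in the adult, with means of 8.64 at E13.5 and 9.28 at E18.5 and 9.09 for the adult. Slc40a1 and 2 of the Slc11a2 probe sets were highest at E18.5 and lower in the adult, as were the means of the small intestine, liver and stroma and muscle lists. The part of these cell types in the levels of the 9 genes was not tested.

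The tissue label was checked with Cdx2, the intestinal homeobox factor, which lay between 8.58 and 9.35 on the 7 arrays, and Hoxd13, of the hindgut (6.90 to 7.32). Epcam, of epithelium (8.64 to 10.30), and Myh11, of smooth muscle (7.17 to 9.01), were also looked at. Of these only Hoxd13 is particular to the hindgut, so the others cannot tell colon from small intestine. A share of small intestine in the samples was not tested. The median over all probe sets lay between 5.81 and 5.86. For the control gene Gapdh, the 5′ probe set minus the 3′ one, which drops as RNA gets shorter, came to −2.41 for the adult and −1.59 to −1.29 for the embryonic stages. The same value for Actb came to −2.66 for the adult and −2.14 to −1.96 before birth. This measure of RNA quality moved with the adult differences given above. Among the embryonic arrays both values were lowest at E15.5 (−1.59 and −2.14), the array on which Tfrc, Slc11a2, Heph and Fth1 were lowest. The part of RNA quality in these levels and in the adult differences was not tested.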

How the data were processed

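RMA (background correction, quantile normalization, summary per probe set) was run by the authors, with affy 1.22.1 under R 2.9.2 according to their processing notes, and the deposited table holds its log2 intensities. Because this step equalizes the arrays, a change common to most genes is hidden. Genes came from the platform annotation, with symbols updated through RefSeq GRCm38.p6 (18033 of 18195 identifiers found there). Only probe sets of a single gene were kept, which dropped 932 with several and 9211 with none. A gene's level is the median of its probe sets, for 18194 genes with no filter on dim ones. limma 3.58.1 (lmFit, eBayes; R 4.3.3) fitted a line in embryonic day plus an adult term, leaving 4 residual degrees of freedom, to all genes and separately to all 34958 probe sets, with Benjamini-Hochberg adjustment across each table. The scripts were tested on simulated data.

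The 9 genes, the comparison lists and the tests were chosen with earlier results of these data known. Apart from the 9, genes were named as the up to 3 called ones per list with the steepest slope or the biggest adult difference and the 3 best correlated with each of the 9, with exceptions marked in the text. Mt3, Mt4, Mtf1, Hmox2 and Hamp were added for their roles and 4 genes for the tissue check. Promoter windows matched 5 of the 9 by symbol. Correlations used Python 3.11.15 and pandas 2.3.3. The alternatives are in the closing section.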

Additional observations from a re-analysis of the deposited data

How the results depend on the processing

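Among 252 values of the 9 genes under 14 alternatives, 238 kept their direction and their side of the threshold, 6 passed only under the alternative, 1 lost its call and 7 uncalled ones changed sign. The number of rising genes was 2 with a line, 3 with the brightest probe set of each gene (adding Tfrc), 1 with the later 3 embryonic arrays set against the earlier 3, 5 with a quadratic term (adding Tfrc, Slc11a2 and Cybrd1, the last at adjusted p = 0.0358 in limma) and 4 without E15.5 (adding Tfrc and Fth1), and 2 to 4 over the fits without each embryonic array, where the other counts stayed at 0 falling, 1 higher and 0 lower. With 2 embryonic levels the adult was set against the mean of the later 3 embryonic arrays, not the E18.5 end of a line. Under this setting the adult differences that changed sign were those of Slc11a2 (0.0805), Slc40a1 (0.0129), its probe set 1448566_at (0.176) and the 3′ and middle control probe sets of Tfrc (0.0025 and 0.0256). With a quadratic term those of Hmox1 (−0.0167) and Cybrd1 probe set 1425040_at (0.0297) changed sign. When single embryonic arrays were left out, the slope ranged from −0.00611 to 0.229 for Cybrd1, −0.0222 to 0.179 for Heph, −0.038 to 0.0026 for Hmox1, −0.0386 to 0.0138 for Slc11a2 probe set 1417584_at, −0.0152 to 0.0597 for Cybrd1 probe set 1425040_at, −0.00183 to 0.0512 for Tfrc probe set 1422967_a_at and −0.0178 to 0.0495 for the middle control probe set. The adult difference ranged from −0.25 to 0.355 for Slc11a2, −0.408 to 0.0924 for Slc40a1 probe set 1448566_at, −0.0348 to 0.939 for Mt1 probe set 1422557_s_at, and −0.101 to 0.032 for the 5′ and −0.102 to 0.157 for the middle control probe set. Apart from the changed reference with 2 levels, the cause was not tested. Leaving out the control probe sets, an alternative chosen after seeing the data, changed no call but moved the slope of Tfrc to 0.21, against 0.10 with them. Over all genes, 1660 rose and 1884 fell, against 645 and 719 with 2 levels, 856 falling without E13.5, 1023 and 1029 without E14.5, 965 and 919 without E17.5 and 812 and 1074 without E18.5, and 593 were lower in the adult, against 1004 with the highest probe set. No paired analysis was possible because each stage has 1 array. With 1 array per stage, precision is set by how few arrays there are, and whether Hmox1 and Hamp were above background was not analysed here.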
